A study of Mus musculus with 24 samples.

Results

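Fatty acid oxidation is described here through 10 genes, chosen as a list of symbols and not by their values: Ppara, Acsl1, Cpt1a, Cpt1b, Cpt2, Acadvl, Acadl, Acadm, Hadha and Hadhb. All 10 symbols were matched to an Ensembl gene, out of 49585 gene identifiers counted in each library. The study sequenced whole fat depots of C57BL/6J males, 24 libraries in 6 groups. In the first experiment, subcutaneous adipose tissue (SAT) came from wild-type mice given a high-fat diet (HFD, 60% of kcal from fat) for 20 weeks (4 libraries, replicates 3 to 6) or a low-fat diet (LFD, 10% of kcal from fat) for 20 weeks (4 libraries, replicates 1, 3, 5 and 6). In the second, Azin2-/- mice and their wild-type littermates were all given the 60% high-fat diet for 8 weeks. Epigonadal adipose tissue (GAT) of that experiment gave 4 Azin2-/- and 4 wild-type libraries, and SAT gave 3 Azin2-/- and 5 wild-type libraries. Azin2 encodes an antizyme inhibitor, a protein that relieves ornithine decarboxylase from its antizyme. The labels state neither how the Azin2 allele was made nor whether Azin2 was deleted in every cell type, and nothing beyond titles says that the libraries are separate animals, so p-values measure the spread between these samples.

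Adipocytes release fatty acids from stored triglyceride, and mitochondria break a share of them down in a repeating cycle that shortens the chain. Acsl1 joins a long-chain fatty acid to coenzyme A. Cpt1a, and its muscle and brown fat counterpart Cpt1b, pass the acyl group to carnitine at the outer mitochondrial membrane, the step that malonyl-CoA inhibits. Cpt2 passes it back to coenzyme A inside the mitochondrion. The dehydrogenases Acadvl, Acadl and Acadm start each cycle on very long, long and medium chains. Hadha and Hadhb are the alpha and beta subunits of the trifunctional protein, which completes the cycle on long chains. Ppara encodes a nuclear receptor that activates most of these genes in liver, heart and brown fat.

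Promoter windows are shown for Cpt1a, the member called in both the diet comparison (without 1 library) and the genotype comparison in GAT, and for Hadha and Hadhb, whose levels ran together across libraries. Each window runs from 250 bases before to 50 bases after the RefSeq start site (build GRCm38.p6), and RefSeq held a window for 9 of the 10 genes. Capitals mark matches on either strand to a single nuclear receptor site (AGGTCA), to the CCAAT box or to the GC box (GGGCGG). No marked match overlaps another.
Cpt1a (chr19:3323051-3323350, + strand): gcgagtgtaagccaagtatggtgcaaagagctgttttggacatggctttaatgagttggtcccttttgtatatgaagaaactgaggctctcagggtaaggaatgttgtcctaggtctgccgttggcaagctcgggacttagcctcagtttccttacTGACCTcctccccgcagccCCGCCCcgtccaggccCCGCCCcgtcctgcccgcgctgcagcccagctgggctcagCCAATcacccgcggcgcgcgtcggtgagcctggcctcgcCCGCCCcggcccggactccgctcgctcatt
Hadha (chr5:30154931-30155230, - strand): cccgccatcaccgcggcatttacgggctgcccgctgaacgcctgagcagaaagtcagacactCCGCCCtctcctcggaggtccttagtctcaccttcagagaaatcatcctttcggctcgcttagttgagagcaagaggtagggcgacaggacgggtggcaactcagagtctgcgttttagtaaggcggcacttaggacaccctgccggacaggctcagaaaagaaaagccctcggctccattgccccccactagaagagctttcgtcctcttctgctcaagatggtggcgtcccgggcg
Hadhb (chr5:30155003-30155302, + strand): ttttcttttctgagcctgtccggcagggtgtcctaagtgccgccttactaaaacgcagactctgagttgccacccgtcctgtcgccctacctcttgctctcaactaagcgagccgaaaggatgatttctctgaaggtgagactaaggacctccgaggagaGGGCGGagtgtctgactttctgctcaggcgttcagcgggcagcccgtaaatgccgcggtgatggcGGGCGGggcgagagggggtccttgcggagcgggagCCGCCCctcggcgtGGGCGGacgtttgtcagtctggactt

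Hadha and Hadhb are transcribed away from each other, with RefSeq start sites 273 bases apart and 228 bases of shared window, so one strand of the Hadha window is largely the other strand of the Hadhb window. The Cpt1a window holds 1 receptor site, 1 CCAAT box and 3 GC boxes. A receptor site was found in the windows of Acadm, Acadvl and Cpt1a, against 16.26% of 32851 mouse promoter windows of this length. GC boxes were found in 7 of 10 member windows, where Acsl1 has 2 windows, against 35.66% of all windows, and CCAAT boxes in those of Acsl1 and Cpt1a, against 37.41% of all. The direct repeat DR1, the form of element that PPAR and RXR dimers bind, was in none of the 10 member windows and in 0.38% of all windows. These matches describe the letters of the windows and not binding.

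Several libraries held RNA of tissues next to fat, and 1 stood apart from its depot label. Total counts ranged from 31.96 to 46.62 megareads per library. The summed level of 16 skeletal muscle markers, in CPM (counts scaled to an equal library total), reached 79160 CPM in Azin2-/- SAT replicate 2 and 70500 CPM in wild-type SAT replicate 3, then 26100 CPM in LFD replicate 5, 7379 CPM in HFD replicate 6 and 1350 CPM in LFD replicate 6. Replicate 2 of Azin2-/- SAT also had 457 CPM of Ucp1, the uncoupling protein of brown fat, and every other library had at most 3.12 CPM. LFD replicate 1 had 51220 CPM of 11 epididymis markers, and wild-type GAT replicate 3 had 5021 CPM, where the others had at most 1.08 CPM. The library labelled LFD replicate 1 had 0.047 CPM of Hoxc10 and 0.117 CPM of Tbx15, developmental genes of SAT, against at least 12.8 CPM of each in the other SAT libraries, and it had 3.03 CPM of Wt1, a gene of the visceral mesothelium, against at most 0.134 CPM in them. Its 10 adipocyte markers summed to 13370 CPM, against 39890 to 45440 CPM in the other LFD libraries. Azin2 RNA was 12.7 to 19.8 CPM in Azin2-/- GAT, against 22.9 to 26.6 CPM in wild-type GAT, and 6.73 to 11.5 CPM in Azin2-/- SAT, against 14.6 to 26.0 CPM in wild-type SAT. Below, results in SAT are given with and without the libraries that bear on them.

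The 10 genes covered a wide range of levels. On a scale per exon length (RPKM, CPM per kilobase of exon, with TMM library sizes over all 24 libraries), Acsl1 averaged 311 ± 6.18 RPKM in HFD SAT, 211 ± 85.2 in LFD SAT, 146 ± 12.7 in Azin2-/- GAT, 112 ± 26.3 in wild-type GAT, 284 ± 55.2 in Azin2-/- SAT and 189 ± 27.0 in wild-type SAT (SD, n = 4, 4, 4, 4, 3 and 5). The dehydrogenases had group means of 127 to 288 RPKM for Acadl, 96.0 to 188 RPKM for Acadm and 53.1 to 156 RPKM for Acadvl. Each upper end was the Azin2-/- SAT mean. Without replicate 2, the library with the most muscle RNA, that mean was 225, 157 and 92.9 RPKM. Cpt2 lay between 40.6 and 94.2 RPKM, Hadhb between 31.6 and 66.6 RPKM, Hadha between 28.1 and 54.2 RPKM and Cpt1a between 13.4 and 26.5 RPKM. The Azin2-/- SAT means, again the upper ends for Cpt2, Hadhb and Hadha, were 83.5, 46 and 40.4 RPKM without replicate 2. Ppara was low, at 0.386 to 1.78 RPKM, and Cpt1b lowest, at 0.0729 to 0.523 RPKM. The Cpt1b mean of 0.523 RPKM in Azin2-/- SAT was 0.133 RPKM without replicate 2. Cpt1b had 6 to 117 reads per library, and 81.4% of its exon bases also lie in the exons of Gm44502 on the same strand, so its counts are uncertain. On the opposite strand, 42.9% of the Acadvl exon bases lie in exons of Dvl2, 9.91% of those of Acsl1 in Gm45244 and 0.859% of those of Hadha in Garem2. The libraries were stranded, but the sources used here do not give the strand setting of the counting. Dvl2 itself had 488 to 1374 reads, against 5276 to 20124 for Acadvl.

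**Figure D1:**
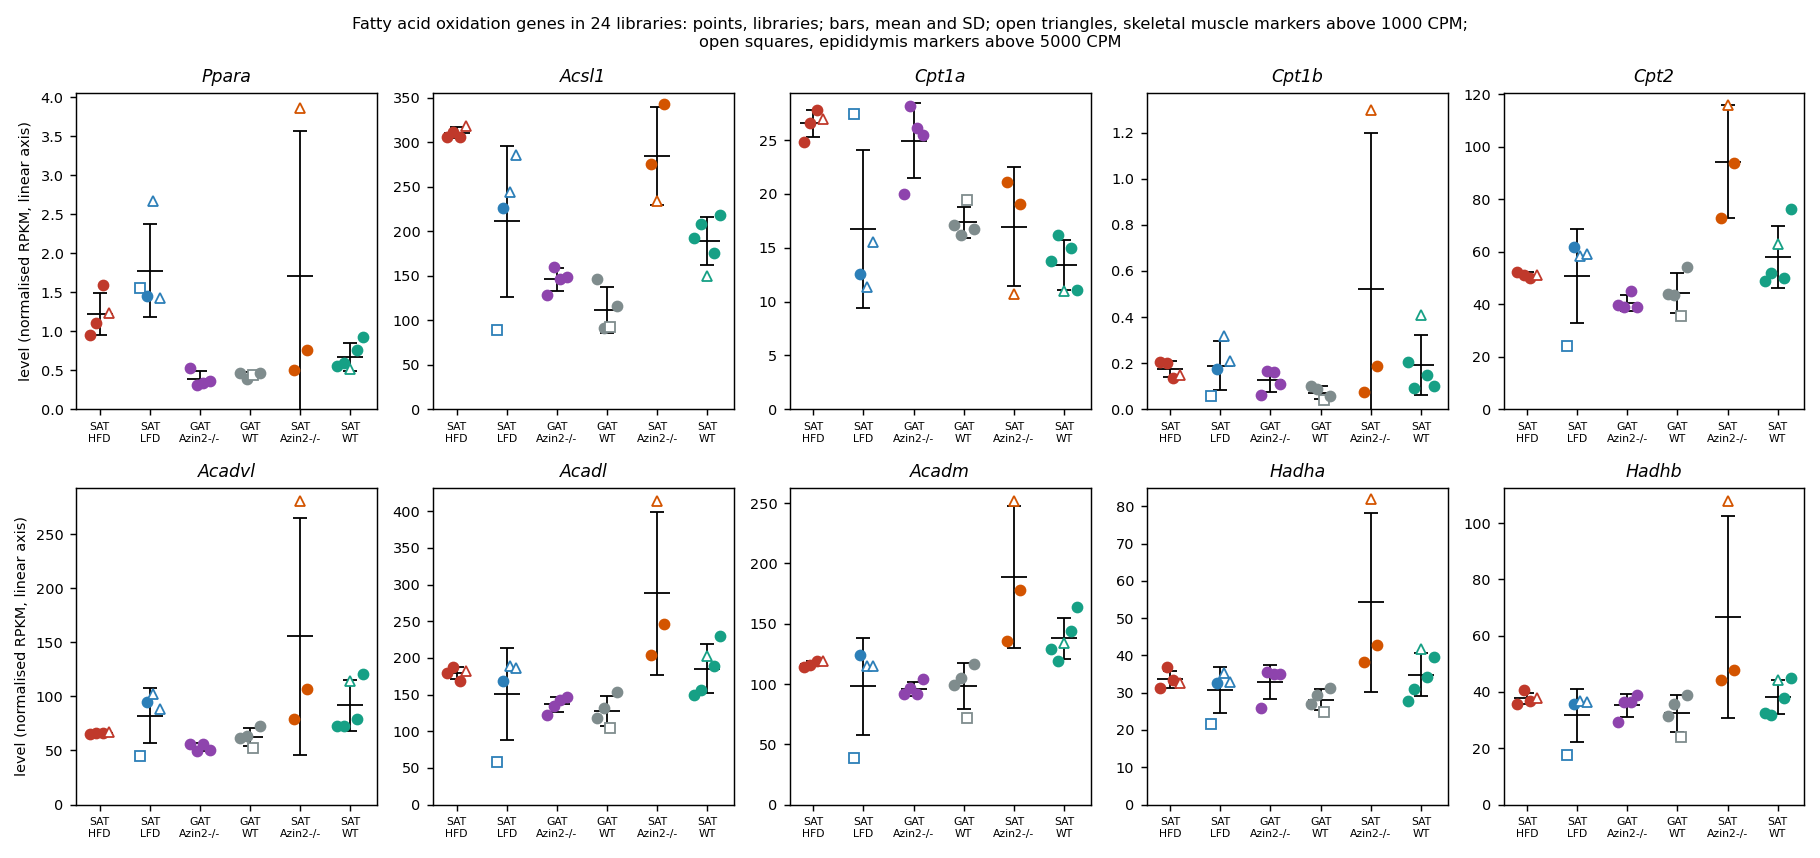
Level of each of the 10 genes (y axis, normalised RPKM, linear) in the 6 groups (x axis), with 1 point per library and bars for the mean and SD; open triangles are libraries with over 1000 CPM of skeletal muscle markers and open squares those with over 5000 CPM of epididymis markers. Replicate 2 of Azin2-/- SAT (open triangle) is the highest point for Ppara, Cpt1b, Cpt2, Acadvl, Acadl, Acadm, Hadha and Hadhb, and LFD replicate 1 (open square) is the lowest LFD point for all genes but Ppara and Cpt1a.

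By group medians over all libraries, both GAT groups came after the 4 SAT groups for 7 of the 10 genes, all but Cpt1a, Hadha and Hadhb. For Cpt1b this did not hold without Azin2-/- SAT replicate 2 and wild-type SAT replicate 3. Its medians were then 0.133 RPKM in Azin2-/- SAT and 0.125 RPKM in wild-type SAT, against 0.137 RPKM in Azin2-/- GAT. Ppara had its highest median in LFD SAT and its lowest in Azin2-/- GAT. Between neighbours in these orders, the libraries overlapped for all 5 pairs of groups in Acsl1, Cpt1a, Cpt1b, Acadl, Acadm and Hadhb. They stood apart for 1 pair in each of the other genes: wild-type SAT over wild-type GAT for Ppara, Azin2-/- SAT over LFD SAT for Cpt2, wild-type SAT over HFD SAT for Acadvl, and Azin2-/- SAT over Azin2-/- GAT for Hadha. The first and second experiments differ in weeks of diet, so levels across them are given without a test.

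The members ran together unevenly across libraries, which share depot, tissue makeup and depth effects. Hadha and Hadhb were each other's nearest gene among 11630 genes with a mean of at least 5 CPM. Their Pearson r of log2 CPM was 0.956 over 24 libraries and 0.901 over 18. The 18 left out Azin2-/- SAT replicate 2, wild-type SAT replicate 3, HFD replicate 6 and LFD replicates 1, 5 and 6. They kept wild-type GAT replicate 3, which had 5021 CPM of epididymis markers. Acadl and Acadm were both nearest to Decr1, an auxiliary enzyme for unsaturated fatty acids, with r = 0.959 and r = 0.962 over the 24 libraries. Cpt2 was nearest to the short-chain dehydrogenase Acads (r = 0.956 over 24 libraries, 0.961 over 18). Acadvl was nearest to Atp5b, a subunit of ATP synthase, over 24 libraries (r = 0.980) and to Hadh, the short-chain hydroxyacyl-CoA dehydrogenase, over 18 (r = 0.967). Acsl1 was nearest to Pik3cb over both sets (r = 0.927 and r = 0.961). Cpt1a stood apart from the other members: its highest r with any of them was 0.056, with Acsl1, over 24 libraries and 0.18, with Hadha, over 18. Over the 18 libraries its nearest gene was Top2a, a topoisomerase of dividing cells (r = 0.966). Ppara and Cpt1b were below 5 CPM and were given no nearest gene.

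The diet comparison asks how the genes differ after 20 weeks of HFD in SAT. With all 8 libraries no member passed the test, and the low-fat library with epididymis RNA and without SAT marker genes decides that count. Without it, Cpt1a was 2.01-fold higher and Acsl1 1.23-fold higher on HFD, Acadvl was 0.694 of its LFD level and Cpt2 0.853 of it. The dehydrogenases of long and medium chains and the trifunctional protein subunits did not pass in either fit. Of 18 further genes of the mitochondrial cycle, 6 were called lower on HFD with all libraries and 14 without that library, where 23.5% of all genes were called lower.

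Cpt1a (ENSMUSG00000024900, chr19:3322334-3385733, + strand; gene coordinates are GENCODE M21 on GRCm38) had 24.8, 26.6, 27.8 and 27.0 RPKM in HFD libraries (replicates 3 to 6), against 27.4, 12.6, 11.4 and 15.5 RPKM in LFD libraries (replicates 1, 3, 5 and 6). The HFD libraries lay above LFD replicates 3, 5 and 6, as for 25.7% of all genes without LFD replicate 1, and LFD replicate 1 lay among the HFD libraries. With all libraries the log2 fold change was 0.63 ± 0.289 (SE, adjusted p = 0.155; here and below adjusted p is from edgeR's quasi-likelihood test, Benjamini-Hochberg over all genes tested, and a gene is called under 0.05). Without LFD replicate 1 it was 1.01 ± 0.102 (adjusted p = 1.4e-04), with 26.5 RPKM on average in HFD and 13.1 RPKM in LFD.

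Acsl1 (ENSMUSG00000018796, chr8:46471037-46536051, + strand) had 306, 312, 306 and 319 RPKM in HFD libraries, against 88.9, 226, 244 and 286 RPKM in LFD libraries. All HFD libraries were above all LFD libraries, as for 17.9% of all genes tested, and LFD replicate 1 was far below the rest. The log2 fold change was 0.54 ± 0.323 with all libraries (adjusted p = 0.254) and 0.30 ± 0.0873 without LFD replicate 1 (adjusted p = 0.0218). Leaving out LFD replicate 3 as well gave an adjusted p of 0.0699 for Acsl1, and leaving out LFD replicate 5 as well gave 0.0557.

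Acadvl (ENSMUSG00000018574, chr11:70010183-70015411, - strand) had 65.0, 66.5, 65.8 and 67.4 RPKM in HFD libraries, against 44.5, 94.8, 102 and 88.1 RPKM in LFD libraries. The HFD libraries were close together and below LFD replicates 3, 5 and 6, as for 26.2% of all genes without LFD replicate 1, and LFD replicate 1 was lower still. Its log2 fold change was -0.33 ± 0.224 with all libraries (adjusted p = 0.312) and -0.53 ± 0.0638 without LFD replicate 1 (adjusted p = 3.1e-04). Cpt2 (ENSMUSG00000028607, chr4:107903981-107923610, - strand) had 52.5, 51.1, 50.2 and 51.0 RPKM in HFD libraries, against 24.1, 61.7, 58.4 and 59.3 RPKM in LFD libraries. The Cpt2 levels, too, did not overlap once LFD replicate 1 was left out, and the log2 fold change of Cpt2 was then -0.23 ± 0.0496 (adjusted p = 0.00541), against -0.00613 ± 0.258 with all libraries (adjusted p = 0.988).

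The remaining members were not called with or without LFD replicate 1. They are Acadl (chr1:66830839-66863277), Acadm (chr3:153922357-153944632), Hadha (chr5:30118304-30155162) and Ppara (chr15:85734983-85802819), with Hadhb (chr5:30155248-30184593) and Cpt1b (chr15:89416405-89425863). Acadl averaged 179 RPKM in HFD SAT and 181 RPKM in LFD SAT without that library (log2 fold change -0.0219 ± 0.0705), and Acadm averaged 117 RPKM in HFD and 118 RPKM in LFD (-0.0187 ± 0.0581). Hadha averaged 33.6 RPKM in both groups (-0.00903 ± 0.0739), and Hadhb 37.8 RPKM in HFD and 36.4 RPKM in LFD (0.0481 ± 0.0623). For these 4 genes the libraries of the groups overlapped. Ppara averaged 1.22 RPKM in HFD and 1.85 RPKM in LFD without that library (-0.61 ± 0.262, adjusted p = 0.0912), and Cpt1b 0.173 RPKM in HFD and 0.233 RPKM in LFD (-0.44 ± 0.291). The highest Ppara level of the LFD group, 2.67 RPKM, was in replicate 5, which also had 26100 CPM of muscle markers.

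Across all genes tested, 3622 of 17066 (21.2%) were called in the diet fit with all libraries, where 0 of 10 members were, and no member had an unadjusted p under 0.05. Without LFD replicate 1, 8109 of 17268 genes (47.0%) were called, 23.5% in each direction, beside 2 members higher and 2 lower of 10, so the members' share was near that of all genes. Their median log2 fold change was -0.02 there, as was the median of all genes. Without LFD replicates 1 and 5 and HFD replicate 6 together, which leaves no library above 1350 CPM of muscle markers, Cpt1a stayed called higher at a log2 fold change of 0.92, and Cpt2 at -0.23 and Acadvl at -0.47 lower, and Acsl1 was at 0.28 and not called (adjusted p = 0.107). In that fit 38.5% of all genes were called.

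Macrophage markers moved with diet beside Cpt1a. The 10 markers summed to 1757 to 2252 CPM in HFD libraries, against 374 to 609 CPM in LFD libraries, and 9 of the 10 were called higher, with and without LFD replicate 1. LFD replicate 1 had the lowest macrophage sum of all libraries, 374 CPM, beside a Cpt1a level within the HFD range. Of the 10 adipocyte markers, 2 were called higher and 5 lower on HFD without LFD replicate 1. The part of tissue makeup in the Cpt1a, Acsl1, Cpt2 and Acadvl differences was not tested, and in bulk tissue fewer cells of a type and less RNA per cell cannot be told apart.

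**Figure D2:**
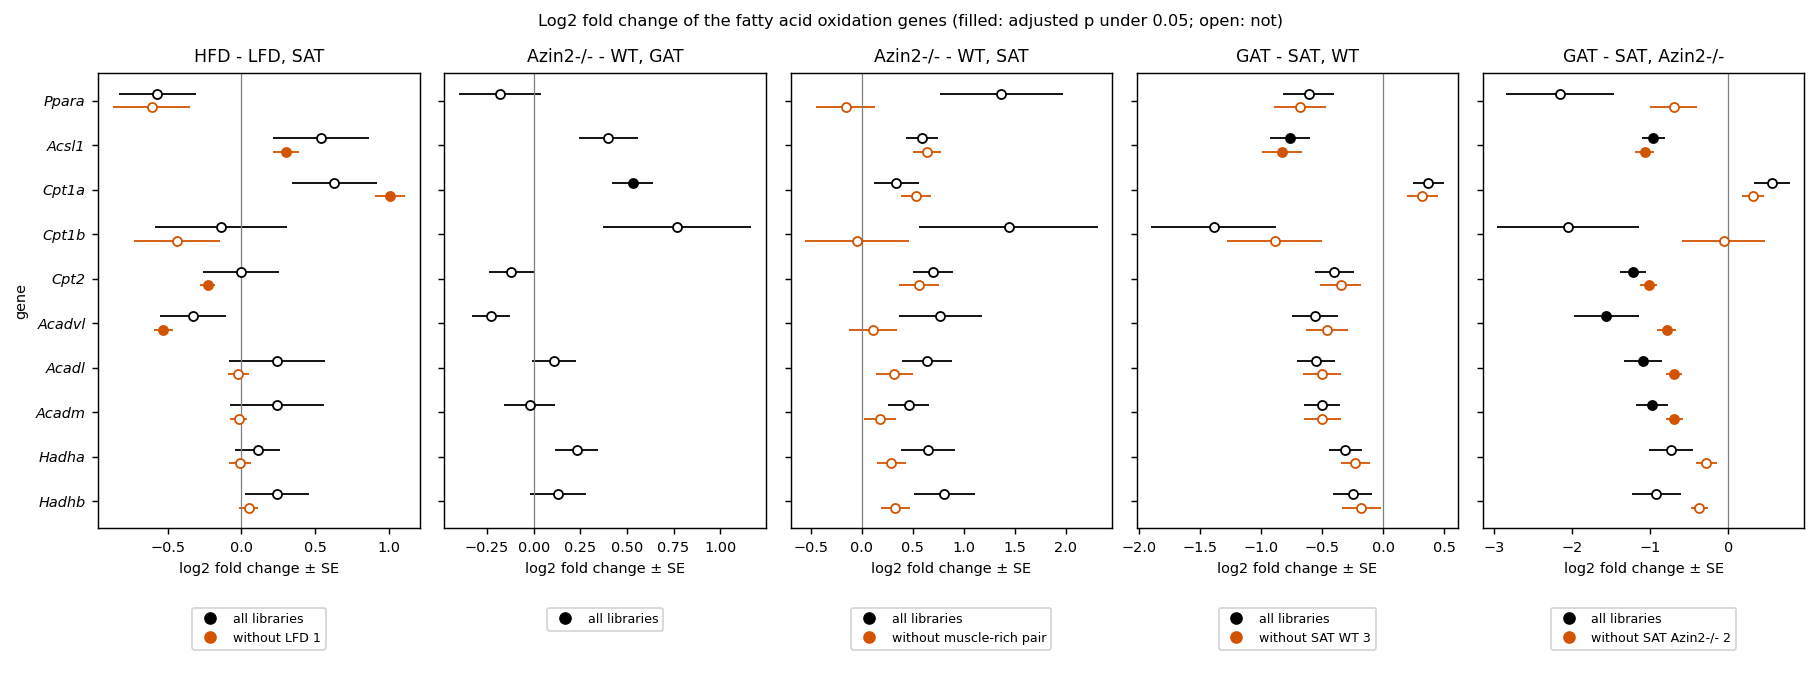
Log2 fold change with its SE (x axis) of each of the 10 genes (y axis) in 5 comparisons, 1 panel each, with black points for all libraries and orange points for the fit without the library or pair named under the panel; filled points have an adjusted p under 0.05. On HFD without LFD replicate 1, Cpt1a sits at 1.01 and Acadvl at -0.53; in GAT against SAT of Azin2-/- mice, Acsl1, Cpt2, Acadvl, Acadl and Acadm are filled in both fits.

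Other genes of the pathway were followed in 7 lists. Beside the lower genes given above, 1 of the 18 further genes of the mitochondrial cycle was called higher on HFD with all libraries and 2 without LFD replicate 1 (median log2 fold change then -0.46). Those of smallest p were Hsd17b10, a hydroxyacyl-CoA dehydrogenase, at 30.8 ± 1.76 RPKM in HFD and 62.9 ± 1.62 RPKM in LFD (log2 fold change -1.04, adjusted p = 1.2e-05), Acad10 (-0.98) and the short-chain enoyl-CoA hydratase Echs1 (-0.86). Acad9, an acyl-CoA dehydrogenase that also assembles complex I, and Etfdh, which hands electrons from the dehydrogenases to ubiquinone, were called higher at 0.37 and 0.17. In the list of the carnitine shuttle and malonyl-CoA, 2 of 8 were higher and 4 lower without LFD replicate 1. Slc25a20, the carrier that exchanges acylcarnitine for carnitine, was at 0.25 and Cpt1c at 0.51. Crat (carnitine acetyltransferase) was at -0.91, Mlycd (malonyl-CoA decarboxylase) at -0.45, and Acacb, which makes the malonyl-CoA near the outer membrane, at -1.40, with 10.1 ± 0.708 RPKM in HFD and 26.4 ± 8.08 RPKM in LFD.

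Among 14 regulators tested, 9 were called lower and 1 higher without LFD replicate 1. The coactivator Ppargc1a was at 0.754 ± 0.213 RPKM in HFD and 1.96 ± 0.497 RPKM in LFD (log2 fold change -1.38), the mitochondrial deacetylase Sirt3 at -0.76, the PPAR partner Rxrg at -1.05 and the orphan receptor Esrrg at 1.23. Of 15 PPAR targets outside oxidation, 5 were higher and 5 lower: Plin2, a lipid droplet coat protein, was at 1.08, Ucp2 at 1.88 and Fgf21 at 1.51, and the triglyceride lipase Pnpla2 was at -1.02, Lipe, the hormone-sensitive lipase, at -0.80 and Vnn1 at -1.09. Of 16 peroxisomal genes, 4 were higher and 7 lower, with Hsd17b4 at 0.37 and Phyh at -0.94. Uptake and activation genes were split, with 2 higher, among them Cd36 at 0.44, and 4 lower of 14, among them Acsf3 at -0.68. Acot7 was higher (0.43) and Acot2 (-0.85), Acot4 (-0.83) and Acot13 (-0.46) lower among 8 thioesterases tested. Over the 7 lists, 17 of 93 genes were higher and 46 lower without LFD replicate 1, and 4 were higher and 15 lower with all libraries. The fit without LFD replicate 1, used for the genes named, keeps LFD replicate 5 with 26100 CPM of muscle markers. Without LFD replicates 1 and 5 and HFD replicate 6 together, 16 of 93 were higher and 43 lower, beside 38.5% of all genes called. In that fit 14 of 18 genes of the mitochondrial cycle and 8 of 14 regulators were lower.

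**Figure D3:**
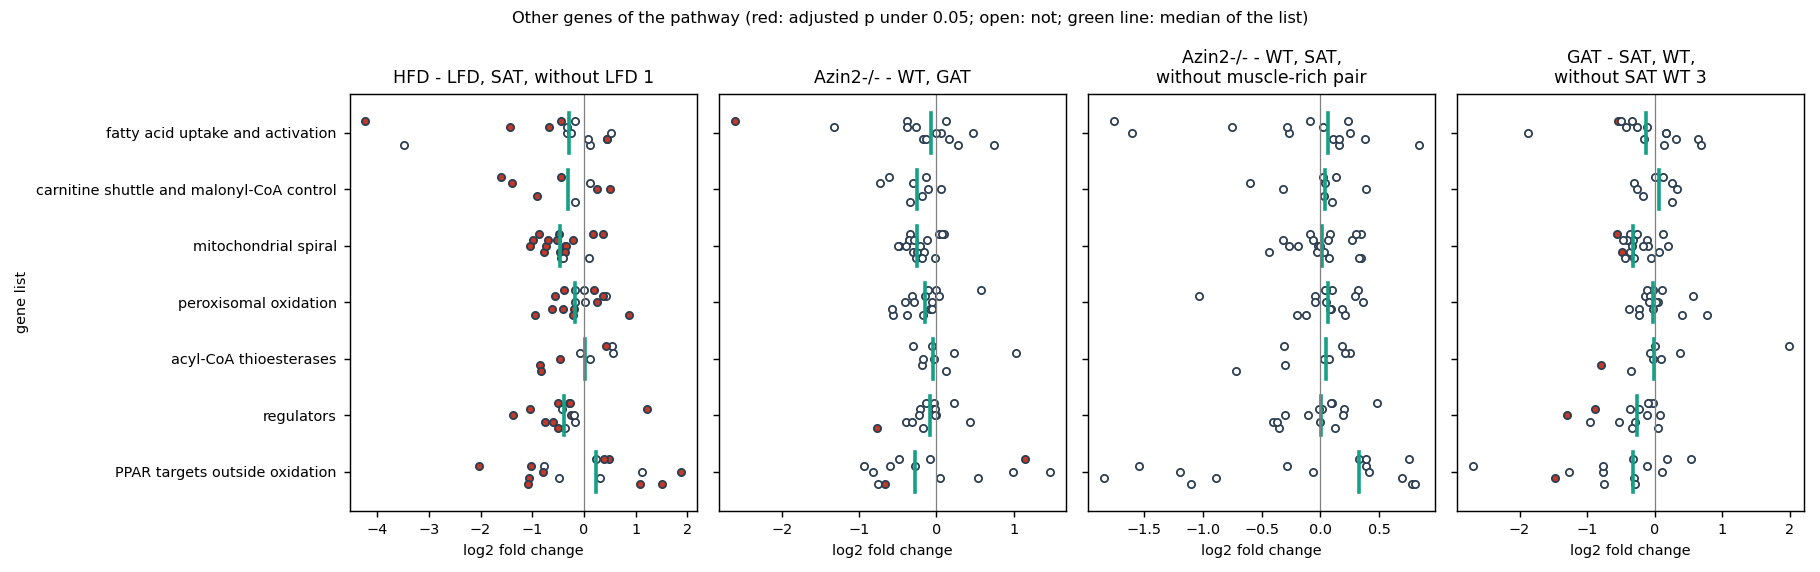
Log2 fold change (x axis) of the other genes of the pathway in 7 lists (y axis), 1 point per gene, in 4 comparisons, the SAT ones without the libraries named above each panel; red points have an adjusted p under 0.05 and green lines are list medians. The mitochondrial spiral list has its median at -0.46 on HFD and at 0.02 in Azin2-/- SAT, where no gene is red.

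The genotype comparisons ask how Azin2-/- mice differ from wild-type littermates in each depot after 8 weeks of HFD. In GAT, Cpt1a was 1.44-fold higher in Azin2-/- mice and was the 1 member called. It had 20.0, 28.2, 26.1 and 25.5 RPKM in Azin2-/- GAT, against 17.1, 16.2, 19.4 and 16.7 RPKM in wild-type GAT. Every Azin2-/- library was above every wild-type library, as for 6.90% of all genes tested, with the smallest gap between 20.0 RPKM in Azin2-/- replicate 1 and 19.4 RPKM in wild-type replicate 3. The log2 fold change was 0.53 ± 0.111 (adjusted p = 0.0408). Of all genes, 1136 of 16778 (6.77%) were called, 915 higher (5.45%), beside 1 of 10 members higher and 0 lower.

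This call sits close to the threshold. Leaving out wild-type replicate 3, the GAT library with epididymis RNA, gave Cpt1a a log2 fold change of 0.60 (adjusted p = 0.048). The call was also kept without wild-type replicate 1 (0.52, adjusted p = 0.0475). It was strongest without Azin2-/- replicate 1 (0.62, adjusted p = 0.00479), where 2672 genes were called. That library had the lowest Cpt1a level of its group and the highest Azin2 level, 19.8 CPM. The call was lost without Azin2-/- replicate 2 (0.46, adjusted p = 0.142), replicate 3 (0.50, 0.129) or replicate 4 (0.52, 0.128), and without wild-type replicate 2 (0.50, 0.0938) or replicate 4 (0.51, 0.119). In these 5 fits the genes called over the whole table also fell to 1 without Azin2-/- replicate 2 and to 0 in each of the others, against 1136 with all libraries. Macrophage markers were again higher beside Cpt1a, at 2276 to 4919 CPM in Azin2-/- GAT and 1188 to 1860 CPM in wild-type GAT, with 9 of 10 markers called higher. Their part in the Cpt1a difference was not tested.

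Acsl1 had 129, 160, 146 and 149 RPKM in Azin2-/- GAT, against 147, 91.2, 92.0 and 116 RPKM in wild-type GAT. Wild-type replicate 1 lay within the Azin2-/- range, and the other wild-type libraries lay below it. The log2 fold change of Acsl1 was 0.40 ± 0.158 (adjusted p = 0.144), and without wild-type replicate 1 it was 0.55 (adjusted p = 0.0421). Acadvl had 56.4, 49.6, 56.0 and 50.5 RPKM in Azin2-/- GAT, against 61.9, 63.6, 52.7 and 72.3 RPKM in wild-type GAT (-0.23 ± 0.102, adjusted p = 0.181). It overlapped through wild-type replicate 3, at 52.7 RPKM.

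The remaining members in GAT had log2 fold changes from -0.18 for Ppara to 0.77 for Cpt1b, and all their groups overlapped. Cpt2 averaged 40.6 RPKM in Azin2-/- GAT and 44.3 RPKM in wild-type GAT, and Acadm 96.0 RPKM in Azin2-/- GAT and 98.1 RPKM in wild-type GAT. Acadl averaged 136 RPKM in Azin2-/- GAT and 127 RPKM in wild-type GAT. Hadha averaged 32.9 RPKM in Azin2-/- GAT and 28.1 RPKM in wild-type GAT (0.23 ± 0.117, adjusted p = 0.224) and Hadhb 35.4 RPKM in Azin2-/- GAT and 32.4 RPKM in wild-type GAT (0.13 ± 0.149). The median over the 10 members was 0.12, against -0.03 over all genes tested.

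Of 90 other pathway genes tested in GAT, 1 was called higher and 3 lower. Ucp2, an inner membrane carrier, had 94.1 ± 28.4 RPKM in Azin2-/- GAT and 42.7 ± 6.33 RPKM in wild-type GAT (log2 fold change 1.15, adjusted p = 0.0408). The corepressor Nrip1 was at -0.77, the medium-chain synthetase Acsm3 at -2.61 and Pnpla2 at -0.66. None of 18 genes of the mitochondrial cycle was called, with the smallest p in the branched-chain dehydrogenase Acadsb (-0.50, adjusted p = 0.0503), and 15 of the 18 were below 0.

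In SAT, no member was called for genotype, and 1 of 16948 genes was (0.00590%), Dio2, a deiodinase of brown fat. All 10 members had log2 fold changes above 0 with all libraries (0.34 to 1.44, median 0.67, against 0.01 over all genes), with a smallest adjusted p of 0.312, and 6 had an unadjusted p under 0.05. DESeq2 called 2 members, Acsl1 and Cpt2, and 338 genes. Without the muscle-rich pair, Azin2-/- replicate 2 and wild-type replicate 3, 8 members were above 0 (median 0.30), the smallest adjusted p was 0.148, 3 members had an unadjusted p under 0.05, and 8 genes were called (0.0463%).

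Acsl1 and Cpt2 kept their size without the pair. Acsl1 had 276, 234 and 343 RPKM in Azin2-/- SAT (replicates 1 to 3), against 193, 208, 150, 176 and 218 RPKM in wild-type SAT (replicates 1 to 5). All Azin2-/- libraries were above all wild-type libraries, as for 3.10% of all genes tested, and within each group the muscle-rich library was the lowest. Its log2 fold change was 0.59 ± 0.160 with all libraries (adjusted p = 0.312) and 0.64 ± 0.141 without the pair (adjusted p = 0.148). Cpt2 had 72.9, 116 and 94.0 RPKM in Azin2-/- SAT, against 49, 52, 63, 49.9 and 76.4 RPKM in wild-type SAT. Only wild-type replicate 5 reached the Azin2-/- range, and the log2 fold change was 0.70 ± 0.193 with all libraries (adjusted p = 0.312) and 0.56 ± 0.198 without the pair (adjusted p = 0.289).

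Cpt1a had 21.1, 10.7 and 19.1 RPKM in Azin2-/- SAT, against 13.8, 16.2, 11, 15 and 11.1 RPKM in wild-type SAT. The muscle-rich library was the lowest in each group, and without the pair the groups did not overlap, as for 13.6% of all genes higher in both remaining Azin2-/- libraries (log2 fold change 0.53 ± 0.147, adjusted p = 0.208, against 0.34 ± 0.217 with all libraries). Macrophage markers summed to 630 to 1339 CPM in Azin2-/- SAT and 582 to 1207 CPM in wild-type SAT, and none of the 10 was called.

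Replicate 2 of Azin2-/- SAT carried much of the group's difference in the other members. Acadvl had 78.7, 281 and 107 RPKM in Azin2-/- SAT, against 72.9, 72.4, 114, 79.1 and 121 RPKM in wild-type SAT. Apart from replicate 2 at 281 RPKM, the Azin2-/- libraries lay within the wild-type range, and the log2 fold change of 0.77 ± 0.408 became 0.11 ± 0.237 without the pair. Acadl had 204, 414 and 246 RPKM in Azin2-/- SAT, against 149, 156, 203, 189 and 230 RPKM in wild-type SAT, and its log2 fold change was 0.64 ± 0.247 with all libraries and 0.32 ± 0.182 without the pair. Replicates 1 and 3 of Azin2-/- SAT were in the upper part of the wild-type range or just above it. Acadm went the same way, at 0.46 ± 0.201 with all libraries and 0.18 ± 0.160 without the pair, as did Hadha (0.65 ± 0.264 and 0.29 ± 0.142) and Hadhb (0.81 ± 0.297 and 0.33 ± 0.143). Ppara had 0.511, 3.86 and 0.757 RPKM in Azin2-/- SAT, against 0.550, 0.591, 0.522, 0.761 and 0.934 RPKM in wild-type SAT. Its log2 fold change was 1.37 ± 0.6 with all libraries and -0.16 ± 0.289 without the pair, and that of Cpt1b was 1.44 ± 0.874 with all libraries and -0.0471 ± 0.509 without the pair.

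The 2 muscle-rich libraries, close in muscle RNA, differed in these genes. Azin2-/- replicate 2 had 281 RPKM of Acadvl, 414 of Acadl, 116 of Cpt2, 3.86 of Ppara and 1.30 of Cpt1b, and wild-type replicate 3 had 114 RPKM of Acadvl, 203 of Acadl, 63.0 of Cpt2, 0.522 of Ppara and 0.410 of Cpt1b. Muscle markers summed to 79160 CPM in the Azin2-/- library and 70500 CPM in the wild-type library, and 10 brown and beige adipocyte markers to 1206 CPM in the Azin2-/- library and 195 CPM in the wild-type library. Ucp1 stood at 457 CPM in Azin2-/- replicate 2, against 0.05 CPM in replicate 3 of wild-type. In the wild-type library, Fabp3 (78.2 CPM), Cox8b (50.8 CPM) and Cox7a1 (36.8 CPM) made up most of the brown and beige sum. The muscle-rich LFD replicate 5 had 31.7, 31.6 and 11.6 CPM of them, against 0.134, 17.5 and 3.01 CPM in LFD replicate 3. The part of muscle RNA in these sums was not tested. With 1 library of each kind there is no test, and the part of brown fat RNA in the levels of Azin2-/- replicate 2 was not tested. Without the pair, the brown and beige sums were 86.5 and 134 CPM in the remaining Azin2-/- libraries, against 64.7, 62.1, 61.2 and 103 CPM in the remaining wild-type libraries. The groups overlapped in this sum, and 1 of the 10 markers, Dio2, was called higher.

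**Figure D4:**
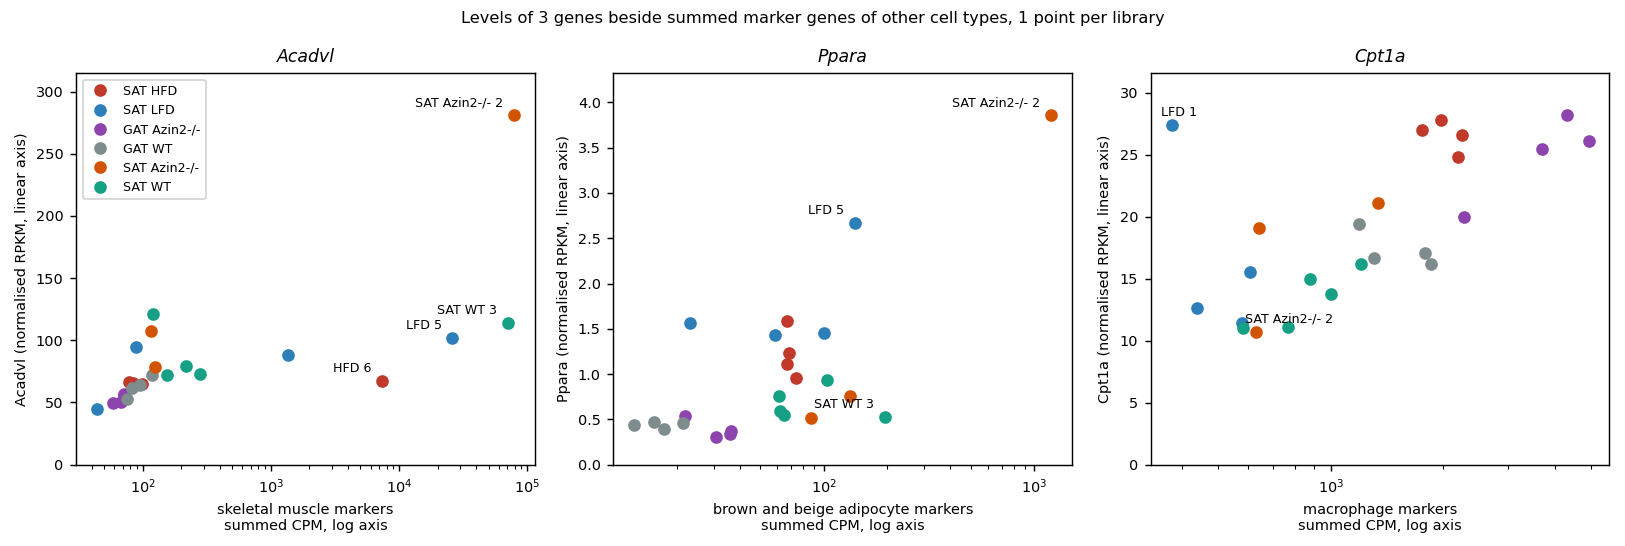
Level of Acadvl, Ppara and Cpt1a (y axes, normalised RPKM, linear) against the summed CPM of skeletal muscle, brown and beige adipocyte and macrophage markers (x axes, log), with 1 point per library coloured by group. Azin2-/- SAT replicate 2 reaches 281 RPKM of Acadvl beside 79160 CPM of muscle markers, where wild-type SAT replicate 3 has 114 RPKM beside 70500 CPM.

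No gene of the 7 pathway lists was called for genotype in SAT, with all libraries or without the pair. Over the 93 genes tested without the pair, 54 had log2 fold changes above 0 and the median was 0.04. The smallest p of each list without the pair belonged, among others, to Esrra, an estrogen-related receptor of mitochondrial genes (0.48 ± 0.0671, adjusted p = 0.0905), Plin2 (0.80 ± 0.135, adjusted p = 0.109) and Acad9 (0.34 ± 0.0755, adjusted p = 0.156).

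The depot comparisons set GAT against SAT in the same genotype; titles share animal marks between depots, but no label says that a mark is a single mouse. With the mark as a replicate block, 0 members and 0 genes were called in wild-type mice, and 1 member, Cpt2 (-1.32, adjusted p = 0.0469), and 1099 genes in Azin2-/- mice. Only marks found in both depots inform the depot difference of that fit, 3 in wild-type mice and 2 in Azin2-/- mice. In each genotype they include the mark of the muscle-rich SAT library. The block fits thus rest on few pairs and cannot decide whether the unblocked calls hold. In wild-type mice, 9 of 10 members were lower in GAT (median log2 fold change -0.52, against -0.01 over all genes) and Cpt1a was higher, and Acsl1 alone was called. Of all genes, 738 of 17030 (4.33%) were called, 318 of them lower (1.87%). In Azin2-/- mice, 5 of 10 members were called lower, where 2549 of 16800 genes (15.2%) were called, 1015 of them lower (6.04%).

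Acsl1 averaged 112 RPKM in wild-type GAT and 189 RPKM in wild-type SAT, and every GAT library was below every SAT library, as for 5.03% of all genes tested. Its log2 fold change was -0.76 ± 0.164 (adjusted p = 0.0323), and -0.83 ± 0.162 without the muscle-rich SAT library (adjusted p = 0.0284), where 1.83% of all genes were called lower. The call did not hold in 7 of 9 fits that each left out 1 library, which called 296 to 909 genes (738 with all libraries), among them the fit without GAT replicate 3, the library with epididymis RNA (-0.69, adjusted p = 0.0503); the highest adjusted p was 0.0958, without GAT replicate 2. The other calls were lost without GAT replicate 4 (0.0749) and SAT replicates 1 (0.0817), 2 (0.061), 4 (0.0583) and 5 (0.0748).

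Acadvl, Acadm and Ppara were also lower in every wild-type GAT library than in every wild-type SAT library and were not called. Acadm averaged 98.1 RPKM in wild-type GAT and 138 RPKM in wild-type SAT (-0.50 ± 0.146, adjusted p = 0.0929), Acadvl 62.6 RPKM in GAT and 91.9 RPKM in SAT (-0.56 ± 0.186, adjusted p = 0.128), and Ppara 0.440 RPKM in GAT and 0.672 RPKM in SAT (-0.61 ± 0.209, adjusted p = 0.138). Acadl, Cpt2, Hadha, Hadhb and Cpt1b overlapped between depots, at -0.55, -0.40, -0.31, -0.25 and -1.39. Without the muscle-rich SAT library, replicate 3, they were at -0.50, -0.35, -0.23, -0.18 and -0.89. Acadm, Acadvl and Ppara were then at -0.50, -0.46 and -0.68, and Cpt1a at 0.32. None of these was called. Cpt1a averaged 17.3 RPKM in wild-type GAT and 13.4 RPKM in wild-type SAT (0.37 ± 0.125, adjusted p = 0.134), and the depots met at 16.2 RPKM. Its difference was the 1 above 0.

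In Azin2-/- mice, Cpt2 had 39.6, 38.8, 45.0 and 38.9 RPKM in GAT, against 72.9, 116 and 94.0 RPKM in SAT (log2 fold change -1.22 ± 0.161, adjusted p = 0.0132). The depots stood well apart, with every GAT library lower, as for 16.2% of all genes tested, and without SAT replicate 2 the log2 fold change was -1.02 ± 0.112 (adjusted p = 0.0112). Acsl1 averaged 146 RPKM in GAT and 284 RPKM in SAT (-0.96 ± 0.149, adjusted p = 0.0171), and -1.07 ± 0.123 without SAT replicate 2. Acadvl, Acadl and Acadm were at -1.56, -1.09 and -0.98 with all libraries, and without SAT replicate 2 they were called at -0.79 ± 0.125, -0.70 ± 0.103 and -0.69 ± 0.113, beside 7.46% of all genes called lower. Hadha and Hadhb were also below SAT in all GAT libraries and were not called (-0.73 and -0.92, and -0.28 and -0.37 without SAT replicate 2). Ppara was at -2.16 ± 0.691 and Cpt1b at -2.05 ± 0.909 with all libraries. Without SAT replicate 2 they were at -0.70 ± 0.297 and -0.059 ± 0.527, and neither was called in either fit. Cpt1a was again above 0, at 0.56 ± 0.230 (adjusted p = 0.133) and 0.32 ± 0.137 without SAT replicate 2.

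These calls depend on single libraries. Without GAT replicate 2 or SAT replicate 3, 0 members were called, beside 36 and 40 genes in all. Without GAT replicate 3 or 4, 1 was, Cpt2, beside 278 and 218 genes. Calls were thus lost over the whole table (2549 genes with all libraries). Without SAT replicate 1, 7 members were called, beside 3414 genes, with Ppara (-2.60) and Hadhb (-1.15) added. That fit kept the muscle-rich SAT replicate 2, at 3.86 RPKM of Ppara, against 0.757 RPKM in SAT replicate 3. Acadvl was also lost without GAT replicate 1 (-1.59, adjusted p = 0.0681). Macrophage markers were higher in GAT, with 10 of 10 called in Azin2-/- mice and 2 of 10 in wild-type mice. They summed to 2276 to 4919 CPM in Azin2-/- GAT and 630 to 1339 CPM in Azin2-/- SAT. Without the muscle-rich SAT library of each genotype, 7 of 10 were called in Azin2-/- mice and 2 of 10 in wild-type mice. Of the 10 adipocyte markers, 3 were called lower in GAT of Azin2-/- mice and 1 in GAT of wild-type mice, and 4 and 0 without those libraries. Their part in the members' differences was not tested.

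Other pathway genes in wild-type GAT were called lower in 9 cases of 90 and higher in 0. They were Acaa2, a thiolase of the mitochondrial cycle (-0.57), Acat1 (-0.50), the thioesterase Acot2 (-0.78), Acsf2 (-0.52), Ppargc1a (-1.45), Rxrg (-1.0), Sirt3 (-0.57), the lipid droplet protein Plin5 (-1.44) and Cidea (-2.56). Without the muscle-rich SAT library 7 were called lower and 0 higher. In Azin2-/- mice, 31 of 90 were called lower in GAT and 2 higher, 11 of 18 in the mitochondrial cycle, and without SAT replicate 2 the counts were 36 lower and 5 higher of 92, with 9 of 18 in the mitochondrial cycle. Among them were Acads (52.0 ± 1.01 RPKM in GAT and 94.6 ± 17.0 RPKM in SAT, -0.87) and Decr1 (51.7 ± 1.93 RPKM in GAT and 90.6 ± 15.2 RPKM in SAT, -0.81), the genes nearest to Cpt2 and to Acadl and Acadm across libraries. Nearness was measured over libraries that include these, so the shared direction adds no separate support.

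The interaction test compares the genotype effect in GAT with that in SAT, and it shares its SAT and GAT libraries with the comparisons above. It called 0 of 18033 genes (0%) with edgeR, 2016 had an unadjusted p under 0.05, and DESeq2 called 158. No member was called. The lowest adjusted p was that of Cpt2 (-0.82 ± 0.243, adjusted p = 0.325), whose log2 fold change was -0.12 in GAT and 0.70 in SAT. Without the muscle-rich pair, Cpt2 was at -0.66 ± 0.241 (adjusted p = 0.439), and again 0 genes were called. For Cpt1a the difference between depots was 0.20 ± 0.261 with all libraries and 0.0173 ± 0.198 without the pair (adjusted p = 0.987). Its genotype difference, called in GAT and not in SAT, is thus not shown to differ between the depots.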

How the data were processed

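The authors deposited raw read counts per Ensembl gene, 1 table for each of 24 libraries of stranded total RNA, per the labels' protocols. The submitters' processing notes name cutadapt, STAR and HTSeq 0.6.1p1, with GRCm38. The other versions, the counting's strand setting and its annotation are not given in sources used here. Symbols, coordinates and exon lengths came from GENCODE M21, matched by 49326 of 49585 identifiers, and promoter windows from RefSeq.

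Libraries were grouped as the labels give them. The test was edgeR's robust quasi-likelihood test (version 4.0.16, R 4.3.3) after filterByExpr (minimum count 10, minimum total 15) and TMM, called at 0.05 after Benjamini-Hochberg adjustment across every gene tested, with the groups of each comparison alone in its fit. DESeq2 1.42.0, other size factors, no filter, a replicate block and leaving out libraries were alternatives. The script was tested on simulated data. Levels are RPKM per exon length, with TMM factors over all libraries, and marker sums are CPM of total counts. A gene at 0 counts could hold up to 3 counts (95% confidence), which covers counting error only, because reads lacking molecular identifiers are no independent molecules. Likeness is Pearson r of log2(CPM + 0.5). All 10 members passed the filter in every comparison.

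The members and the gene lists were chosen with earlier results of these data known. Named were all members, up to 3 called genes per direction and list by smallest p (else the smallest p alone), and the gene nearest to each member (1 such gene is not reported here). Leaving out each further library after LFD replicate 1 was chosen after seeing the data. No samples were duplicates of each other (lowest chi-square per degree of freedom between replicates 8.93).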

Additional observations from a re-analysis of the deposited data

Results flagged for a closer look

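Of 50 group levels with at least 4 libraries, 7 had a highest or lowest library whose gap to the nearest other, divided by the group's range, passed Dixon's 95% limit, and chance alone flags about 1 in 20. Azin2-/- SAT, with 3 libraries, was not tested. In LFD SAT, replicate 1 was low for 4 genes. Cpt2 was at 24.1 RPKM there, against 58.4 to 61.7 RPKM in the other LFD libraries (ratio 0.913). Acadl was at 57.6 RPKM, against 169 to 189 RPKM (ratio 0.850). Acadm was at 38.4 RPKM, against 115 to 124 RPKM (ratio 0.896), and Hadhb at 17.5 RPKM, against 35.8 to 36.9 RPKM (ratio 0.944). This is the library with 51220 CPM of epididymis markers and 13370 CPM of adipocyte markers; the part of these in the low levels was not tested.

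Ppara was high in LFD replicate 5, at 2.67 RPKM, against 1.43 to 1.56 RPKM in the other LFD libraries (ratio 0.896), beside 26100 CPM of muscle markers. In Azin2-/- GAT, Cpt2 was high in replicate 3, at 45.0 RPKM, against 38.8 to 39.6 RPKM in the others (ratio 0.880), and Hadha was low in replicate 1, at 26.0 RPKM, against 35 to 35.6 RPKM (ratio 0.930).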

How the results depend on the processing

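Of 889 recomputed log2 fold changes of single members, 796 kept their direction and their side of the threshold or moved within their error, 39 lost a call, 45 gained one and 9 moved, and no called value changed sign. Leaving out 1 library gave 0 to 2 members higher and 0 to 2 lower on diet, beside 1802 to 8109 genes called, where 8109 is without LFD replicate 1; after removing that library, leaving out each other gave 1 to 2 members higher, 2 lower and 6867 to 7559 genes. Without LFD replicates 1 and 5 and HFD replicate 6, 1 member was higher, 2 were lower and 6701 genes were called. In GAT, leaving out 1 library gave 0 to 2 members higher and 0 to 2672 genes (main 1136). For genotype in SAT it gave 0 to 4 genes. For depot it gave 0 to 1 members lower and 296 to 909 genes in wild-type mice, and 0 to 7 members lower and 36 to 3414 genes in Azin2-/- mice. The interaction gave 0 to 107 genes.

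Without a filter on low counts, the counts were 2335 genes for diet, 0 genes and 0 members in GAT, and 490 genes and 0 members for depot in wild-type mice; the cause was not tested. DESeq2 called 3079 genes in GAT, 338 genes and 2 members for genotype in SAT, 1784 genes and 4 members for depot in wild-type mice, 4387 for depot in Azin2-/- mice and 158 for the interaction. Without the muscle-rich pair 8 genes were called for genotype in SAT. DESeq2 size factors changed no count by over 1.5 times.

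No label says that a shared replicate number (diet) or animal mark (depot) pairs samples, and the deviations of same-numbered libraries correlated at -0.001 to 0.266 for diet, -0.05 to 0.236 for depot in wild-type and -0.058 to 0.032 in Azin2-/- mice. A replicate block gave 1 member higher (Cpt1a, 1.02), 1 lower (Acadvl, -0.53) and 5867 genes for diet. For depot it gave 0 members and 0 genes in wild-type mice, and 1 member lower and 1099 genes in Azin2-/- mice. The block uses fewer libraries or degrees of freedom, because only shared numbers or marks (3, 3 and 2 in these comparisons) inform the difference. LFD replicate 1 and HFD replicate 4 share no number, so the diet block in effect left both out. Without LFD replicate 1 and with no block, Cpt1a was at 1.01 and Acadvl at -0.53. No paired analysis was possible for genotype because the marks of Azin2-/- and wild-type mice belong to different animals. Counts of 6 to 117 reads limit Cpt1b, and 3 or 4 libraries per group limit the rest.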
